A study of Mus musculus with 32 samples.

Results

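The genes described here are 38 structural, contractile and metabolic genes of striated skeletal muscle, followed in the prostatic urethra, in lobes of the prostate and in the embryonic urogenital sinus of male mice. They were listed by name, as genes of the sarcomere and its supply of calcium and energy, with earlier results of these data known. Of the 38, 37 are among the 13780 genes of the expression table, and Myh7, the slow and cardiac myosin heavy chain, was not analysed here. The urethra of male rodents is wrapped by a striated sphincter that is rich in fast-twitch fibres, while the prostate lobes are glands in a sheath of smooth muscle. In a striated fibre, myosin heavy chains pull on actin filaments when calcium released from the sarcoplasmic reticulum binds troponin, and the Z-disc anchors the filaments at each end of the sarcomere. Fast and slow fibres use different paralogs of most of these proteins, so the paralog ratio describes the kind of fibre as well as its amount.

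RNA sequencing covered 32 libraries in 8 groups of 4. For 2 weeks, adult male C57/BL6 mice carried 25 mg of testosterone together with 2.5 mg of oestrogen implanted under the skin, called T+E2 here, while control mice had no hormone treatment. From both arms came prostatic urethra, dorsolateral prostate (DLP) and anterior prostate (AP). Untreated libraries are numbered 6, 7, 8 and 10 in urethra, 7, 8, 9 and 10 in DLP and 6, 7, 8 and 9 in AP, and T+E2 libraries 1, 2, 3 and 4 in urethra, 1, 2, 18 and 24 in DLP and 2, 3, 17 and 18 in AP. The UGS (urogenital sinus), from which prostate buds grow in the embryo, came from males at E16.5, and was cultured for 6 days with testosterone (libraries B, C, G and H) or received no hormone (libraries A, C, D and H). The labels state the culture time for the testosterone arm, so an effect of hormone and one of culture time cannot be told apart. The adult tissues were whole dissected pieces, so each library is a mixture of cell types, and the controls were not described as receiving a blank implant.

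Values are TPM, a transcript share scaled to a fixed total, and are corrected for gene length, so that levels of different genes can be set side by side. They sum to between 994133 and 997961 per library over the table. Between 12289 and 13337 genes reached 1 TPM in a library. TPM keeps no read number, and depth is therefore unknown. The tissue labels were checked against defining genes. Probasin (Pbsn), an androgen-driven prostate secretion, ran from 11524 to 57693 TPM in the lobes, from 2.09 to 6304 TPM in urethra and at or below 0.16 TPM in UGS. The seminal vesicle gene Svs2 was at 78309 TPM or more in every DLP library and at 26856, 52489 and 36039 TPM in AP control 9 and AP T+E2 17 and 18, against 11.5 to 159.0 TPM in the other 5 AP libraries. Some lobe libraries also stood apart from the rest of their group in the muscle genes, which is described with the lobes below.

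The members made up 7.76%, 7.86%, 9.25% and 9.26% of all TPM in the untreated urethra libraries 6, 7, 8 and 10. In T+E2 urethra libraries 1, 2, 3 and 4 they made up 11.1%, 11.1%, 9.34% and 12.6%, so that the groups did not overlap, with library 3 close to the highest control. The AP lay between 0.0593% and 0.0748% in all 8 libraries. In DLP, untreated libraries 7, 9 and 10 held 0.0611%, 0.0717% and 0.0686% and library 8 held 0.155%, while T+E2 libraries 1, 2, 18 and 24 held 0.159%, 0.0713%, 0.415% and 0.455%. DLP was thus the one adult tissue whose libraries differed several-fold among themselves. The UGS held 0.0745% to 0.212% without hormone and 0.0898% to 0.145% with testosterone. In tissue pieces such as these, more muscle cells and more muscle RNA per cell cannot be told apart.

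**Figure D1:**
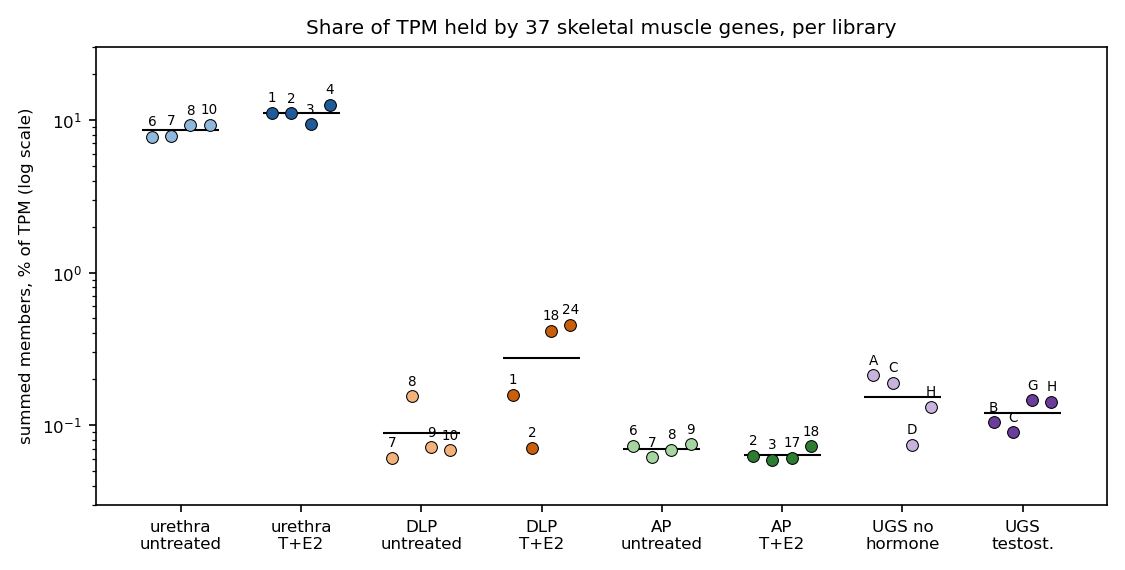
Summed TPM of the 37 skeletal muscle genes as a percentage of all TPM in each library (log axis). Each point is 1 library and each line the mean of its group. Urethra libraries lie between 7.76% and 12.6%, all AP libraries at or below 0.0748%, and 3 of 4 T+E2 DLP libraries with DLP control 8 lie above the other DLP libraries.

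In the untreated urethra, the genes of fast fibres dominated. Troponin T of fast fibres, Tnnt3, which holds the troponin complex on tropomyosin, was the most abundant member at 9749 ± 925 TPM (mean ± SD, n = 4). Skeletal actin Acta1 (8530.1 ± 934 TPM), muscle creatine kinase Ckm (8249.9 ± 821 TPM), the light chains Myl1 and Mylpf, and the fast troponins Tnnc2 (calcium-binding) and Tnni2 (inhibitory) completed a top group of 7 whose neighbours overlapped in their ranges. The next 4, also overlapping among themselves and separate from the top group, were myoglobin Mb (4755 ± 658 TPM), the fast heavy chain Myh4, the muscle enolase Eno3 and the fast calcium pump Atp2a1. In all, 17 members averaged at least 1000 TPM and 30 at least 100 TPM. The 14 fast-fibre members summed to 47073 to 56026 TPM per untreated library, and the 4 slow-fibre members present summed to 105 to 130 TPM.

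The slow troponins were at or near the bottom of the order, but not every slow isoform was low. The slow troponin subunits Tnnt1, Tnnc1 and Tnni1 averaged 18.0 ± 3.38, 1.56 ± 0.233 and 1.17 ± 0.646 TPM. Tropomyosin Tpm3, which is also made outside muscle, averaged 99.5 ± 8.76 TPM. Mybpc1, the slow myosin-binding protein, is not among the 4 slow-fibre members and averaged 632 ± 74.8 TPM, and the slow light chain Myl3, which is no member and was chosen after its values were seen, averaged 1576 ± 149.9 TPM. Myh2, the heavy chain of fast oxidative fibres, averaged 13.4 ± 3.56 TPM. Between the extremes, the Z-disc and titin-nebulin genes ran from 94.3 ± 13.3 TPM for the giant spring protein Ttn to 1708 ± 172 TPM for its cap Tcap. Calcium-handling genes ran from 65.7 ± 8.90 TPM for the voltage sensor Cacna1s to 3095 ± 459.9 TPM for Atp2a1, and the calcium buffer parvalbumin (Pvalb), typical of the fastest rodent fibres, averaged 1450.1 ± 204 TPM.

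**Figure D2:**
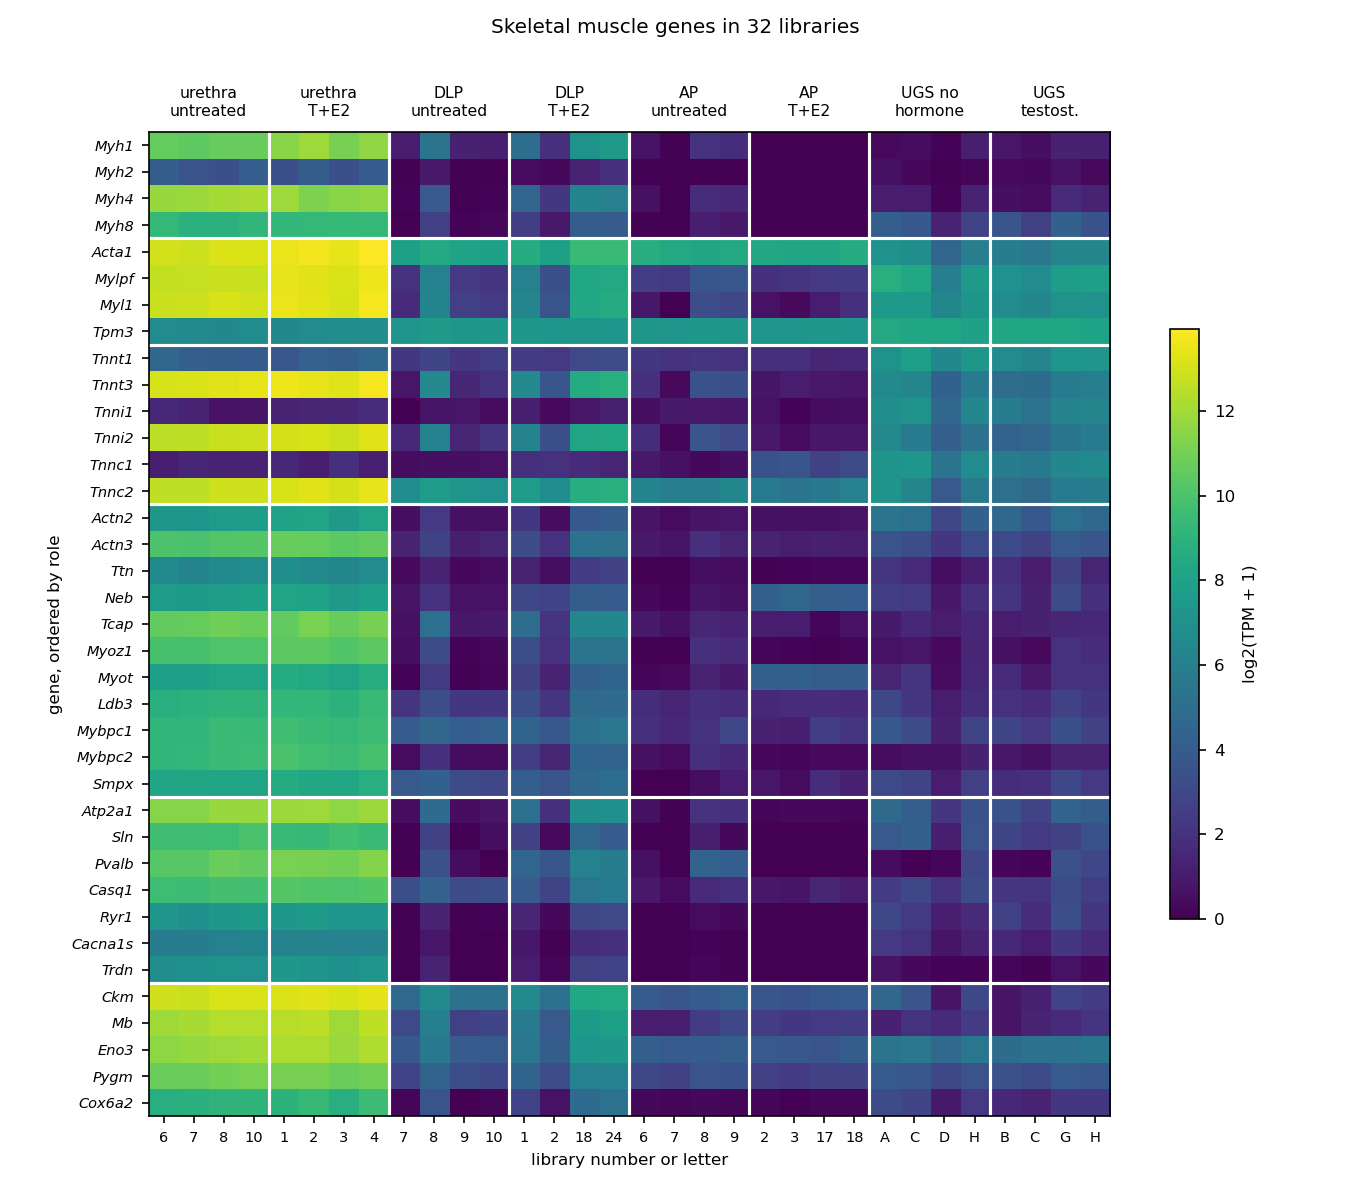
Level of each of the 37 members (rows, by role) in each of the 32 libraries (columns, by group) as log2(TPM + 1). The urethra columns are high for most members and lowest for Tnni1, Tnnc1, Myh2 and Tnnt1, the UGS columns are high for the slow troponins, and DLP T+E2 18 and 24 are the highest of the lobe columns for most fast-fibre genes.

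Myh1 and Myh4 were the most abundant heavy-chain genes of the urethra, and their start regions are shown because the pair lies side by side in the same gene cluster on chromosome 11. Both are the 250 bases before the annotated start, from RefSeq on GRCm38.p6, plus strand, Myh1 at chr11:67199852-67200101 and Myh4 at chr11:67237562-67237811. Capitals mark matches, searched on both strands, to the MEF2 motif, the TATA box TATAAA, the CArG box and the E-box CANNTG, which are motifs of muscle and general promoters.
Myh1: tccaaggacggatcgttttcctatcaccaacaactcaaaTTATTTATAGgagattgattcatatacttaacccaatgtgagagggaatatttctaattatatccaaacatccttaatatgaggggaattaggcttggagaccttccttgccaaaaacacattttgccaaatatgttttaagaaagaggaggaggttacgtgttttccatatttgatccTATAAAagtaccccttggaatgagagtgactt
Myh4: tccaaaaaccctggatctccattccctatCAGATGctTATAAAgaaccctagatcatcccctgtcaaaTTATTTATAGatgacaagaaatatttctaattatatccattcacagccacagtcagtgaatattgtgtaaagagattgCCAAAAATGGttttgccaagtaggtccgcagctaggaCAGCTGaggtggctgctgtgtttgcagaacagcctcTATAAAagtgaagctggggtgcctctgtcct
Both windows hold the MEF2 match TTATTTATAG, starting 211 bases before the start in Myh1 and 182 in Myh4, where it overlaps TTTATA, the TATA box read on the other strand. Both also hold TATAAA 32 and 31 bases before the start, and a shared run of 20 bases, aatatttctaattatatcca. The Myh4 window alone holds the E-boxes CAGATG and CAGCTG and the CArG match CCAAAAATGG. Over windows of 300 bases that reach 50 bases past the start, E-boxes were in 28 of 35 windows of the 28 members matched and in 72.3% of all 32851 windows, TATAAA in 7 of 35 and 13.6%, MEF2 in 5 of 35 and 3.19%, and the CArG box in 4 of 35 and 1.63%. The 35 windows include those of Myh7, whose expression was not analysed. Overlapping windows of the same gene, such as those of Ldb3, are counted separately.

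Under T+E2, Myh1 rose in the urethra. Myh1 encodes the IIx heavy chain, and stood at 1616, 1428, 1654 and 1632 TPM in untreated libraries 6, 7, 8 and 10 and at 2861, 3760.5, 2185 and 3196 TPM in T+E2 libraries 1, 2, 3 and 4. All T+E2 values exceeded all controls, by 1.90 times in the means, with a log2 fold change on the log2(TPM + 1) scale of 0.90 ± 0.15 (SE) and an adjusted p of 0.0492 (limma, Benjamini-Hochberg over 12985 genes). Myh4, the heavy chain of the fastest rodent fibres (IIb), did not follow. It stood at 3554, 3659, 4294 and 4593 TPM in controls and at 3819, 2363, 2803 and 3154 TPM under T+E2 (log2 fold change −0.42 ± 0.15, adjusted p = 0.254). T+E2 library 1 lay within the control range for Myh4, and the other three lay below it.

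As a share of the 4 heavy chains present, Myh1 made up 27.9%, 25.6%, 25.6% and 23.9% in controls 6, 7, 8 and 10 and 39.2%, 55.6%, 38.8% and 45.7% in T+E2 libraries 1 to 4. Myh4 made up 61.3%, 65.6%, 66.5% and 67.3% in controls and 52.3%, 34.9%, 49.8% and 45.1% under T+E2. Neither pair of groups overlapped, and in T+E2 libraries 2 and 4 Myh1 was the more abundant of the pair. The perinatal heavy chain Myh8 kept to 7.68% to 10.5% in controls and 8.30% to 11.3% under T+E2, and Myh2 was at most 0.278% in untreated or treated urethra. These shares were examined after the values were seen and were not tested as shares. The heavy chains are close paralogs whose reads can be shared, so the split between them is uncertain.

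**Figure D3:**
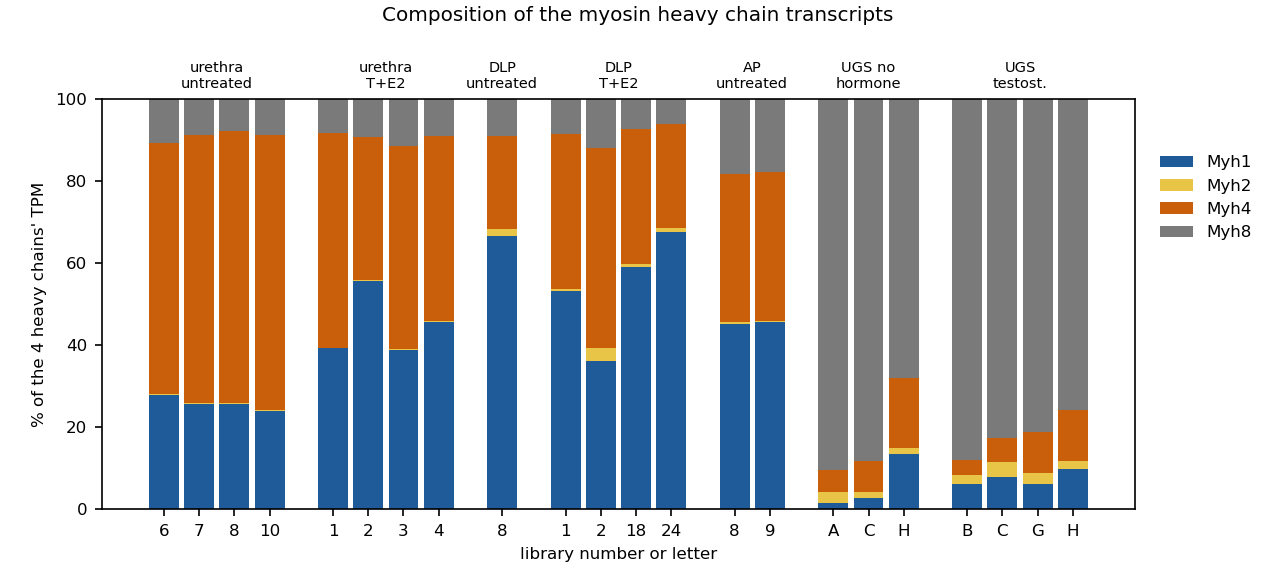
Share of the summed TPM of Myh1, Myh2, Myh4 and Myh8 held by each, in the libraries whose sum is at least 5 TPM. Myh4 is the largest part of untreated urethra, Myh1 holds 38.8% to 55.6% of T+E2 urethra, and Myh8 is the largest of these 4 in the UGS libraries shown. Embryonic Myh3 is not in the sum.

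Across the set, 2 of 37 members rose under T+E2 in the urethra and 0 fell, where 0.2% of all genes tested rose and 0.162% fell. The second was calsequestrin Casq1, the calcium store of the sarcoplasmic reticulum in fast fibres. Casq1 was at 766, 762, 892 and 859 TPM in controls and at 1220.4, 1117, 1091 and 1246 TPM under T+E2, with no overlap (log2 fold change 0.51 ± 0.08, limma adjusted p = 0.0426). An unadjusted p under 0.05 was reached by 19 members, and by 14.7% of all genes. Fold changes were positive for 34 of 37 members, with a median of 0.23 against −0.04 for all genes tested. In 12 members every T+E2 library exceeded every control, against 2.3% of all genes, and in 0 members did every T+E2 library lie below every control, against 5.8% of all genes. Both calls were marginal. Myh1 and Casq1 each lost theirs with all genes unfiltered, under median-of-ratios or quantile scaling, after removing a length trend, and when any one of controls 7, 8 or 10 or T+E2 libraries 2 or 4 was left out. The same held for Casq1 without T+E2 library 3, and for Myh1 with a pseudocount of 5 or without the mean-variance trend.

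Differences that did not pass the test ran through every role. Mean TPM was 1.57 times higher for the regulatory light chain Mylpf (log2 fold change 0.65 ± 0.12, limma adjusted p = 0.0650), and Acta1 differed by 0.60 ± 0.15 (adjusted p = 0.129). The 6 troponins ranged from 1.04 to 1.63 times the control mean, the 11 Z-disc, titin, nebulin and myosin-binding genes from 1.09 to 1.40 and the 5 energy genes from 1.04 to 1.27. In the calcium group, Pvalb was 1.55 times higher (0.63 ± 0.12, adjusted p = 0.0698), while sarcolipin Sln, a small inhibitor of the calcium pump, was at 0.855 of its control mean (−0.23 ± 0.10, adjusted p = 0.343). None of these passed the test.

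The urethra libraries were also rescaled, after the data were seen, so that the members summed to the same value in each. Relative to the set, the log2 difference was then 0.53 ± 0.13 for Myh1, 0.28 ± 0.10 for Mylpf and 0.15 ± 0.11 for Casq1. It was −0.79 ± 0.13 for Myh4, −0.60 ± 0.15 for Sln and −0.31 ± 0.11 for the glycogen phosphorylase Pygm. Such a scaling makes some members positive and others negative by construction, and it moved the median of all genes from −0.04 to −0.37, so these values are a description and no call is read from them.

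**Figure D4:**
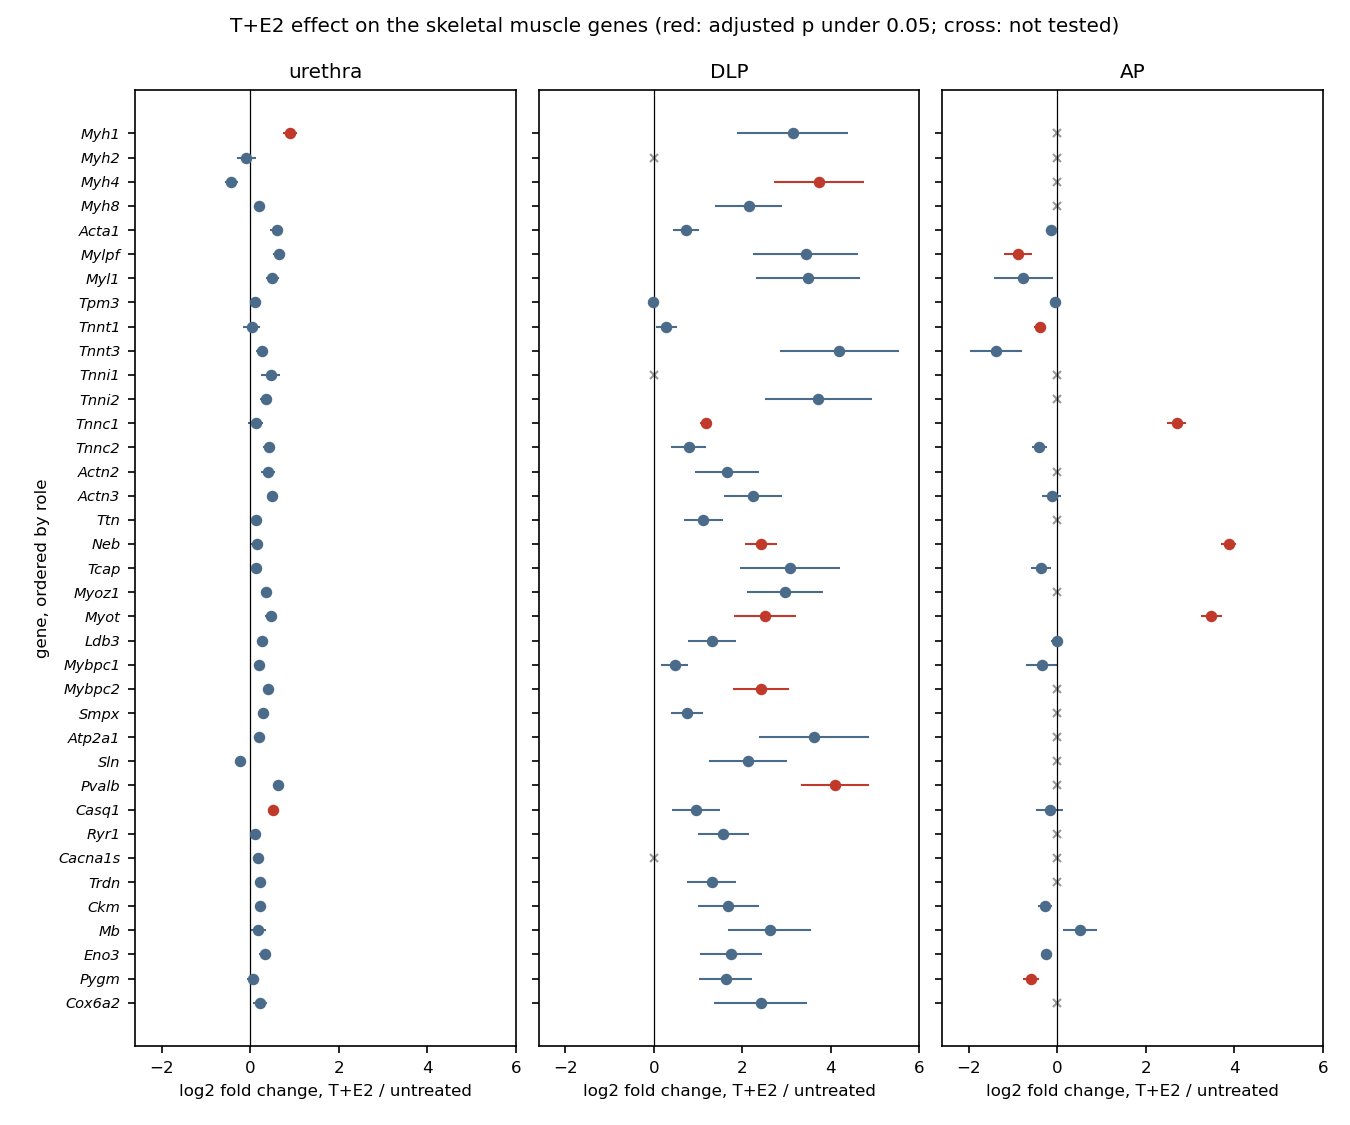
Log2 fold change (points) with its standard error (bars) of each member under T+E2 in urethra, DLP and AP, on the log2(TPM + 1) scale. Red points passed the test and crosses mark members too low to be tested. Urethra values are small and mostly positive, DLP values large with wide bars, and in AP 3 members stand far to the right.

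Other muscle genes of the urethra did not pass the test. None of 66 other skeletal muscle genes (median log2 fold change 0.17), 16 myogenic regulators and satellite cell genes or 12 neuromuscular junction genes was called by limma, and 20, 4 and 1 of them had an unadjusted p under 0.05. The master regulator Myod1 stood at 4.70 to 7.26 TPM in controls and 2.06 to 4.89 TPM under T+E2, and myogenin (Myog) at 7.26 to 8.72 and 5.74 to 8.16 TPM. Embryonic myosin Myh3 stayed at or below 0.38 TPM, and the acetylcholine receptor subunit Chrna1, a junction gene, at 6.28 to 7.81 TPM. Smooth muscle markers, of which limma called 0 of 14 and 4 had an unadjusted p under 0.05, summed to 4008 to 5136 TPM in controls and 4384 to 6269 TPM under T+E2, and the list includes Tpm2 and Des, which skeletal fibres also use. Its defining genes Myh11 (86.3 to 150.5 against 68.3 to 106 TPM) and Acta2 (301 to 491 against 271 to 390.2 TPM) overlapped between the groups. The 10 prostate secretion genes, with 0 called and 4 at an unadjusted p under 0.05, summed to 1687 to 32398 TPM in controls and 289.6 to 2266 TPM under T+E2, with a median log2 fold change of −2.16, and of 8 adipocyte markers tested 0 were called and 1 had an unadjusted p under 0.05. The adipocyte sum of 2765 to 2976 TPM in controls and 1589 to 2552 TPM under T+E2 was mostly Car3 (means of 2574 and 1822 TPM), which muscle also makes, while Adipoq averaged 1.73 and 1.94 TPM. Their part in the members' difference was not tested.

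Compared with the untreated lobes, the urethra was higher in nearly every member. Against DLP, 35 of 36 members tested were higher and 1 was lower, where 29.1% of all genes were higher and 33.2% lower. Against AP the counts were also 35 higher and 1 lower, where 33.2% and 42.3% of all genes were. Of those tested, 3 and 9 reached the 1 TPM filter only through the urethra and so had to differ, and Tnni1 was too low to be tested in either. The median log2 difference was 7.48 against DLP and 8.00 against AP, beside −0.05 and −0.10 over all genes. Myh4 differed by 10.9 ± 0.74 and 10.97 ± 0.33, while slow troponin C, Tnnc1, differed by only 0.77 ± 0.12 and 0.73 ± 0.15. Tpm3 was the exception, lower in urethra by 0.73 ± 0.08 and 0.73 ± 0.07 on the log2 scale. The 2 comparisons share the urethra libraries. Other skeletal genes were higher in 64 and 65 of 66, myogenic genes in 16 of 16 and junction genes in 11 of 12 in both comparisons.

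The lobes were not without members. Acta1 lay between 237 and 679 TPM in the lobes, Tpm3 between 150.3 and 177 TPM, and the fast calcium-binding troponin Tnnc2 between 38.6 and 428 TPM. Untreated DLP exceeded AP in 7 of 19 members tested and was lower in 1, where 22.5% of all genes were higher and 35.2% lower. The 7 were Ckm (log2 difference 1.41), Tnnc2 (1.04), Mb (1.77), Casq1 (2.33), the Z-disc linker Ldb3 (0.75), the slow myosin-binding protein Mybpc1 (2.14) and the small muscle protein Smpx (3.21). Acta1 was lower in DLP by 0.36 ± 0.13 on the log2 scale, a call that ended under median-of-ratios or quantile scaling and without DLP control 7, 9 or 10 or AP control 6 or 7. Mb lost its call under 11 alternatives, among them leaving out DLP control 7 or 8 or AP control 6, 7 or 8.

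In the DLP, 6 members rose under T+E2, and most fast-fibre genes were high in some libraries and not in others. Of 34 tested, 6 rose and 0 fell, where 6.09% of all genes rose and 4.63% fell. They were Myh4, Tnnc1, Pvalb, the thin-filament ruler nebulin (Neb), the Z-disc protein myotilin (Myot) and the fast myosin-binding protein Mybpc2. In all, 28 of the 34 had an unadjusted p under 0.05, as did 24.9% of all genes, and the median log2 fold change was 2.14 against 0.02 over all genes. Groups did not overlap in 3 members (Tnnc1, Pvalb and Neb), where 8.92% of all genes had every T+E2 value above every control, and in 0 downwards, where 7.41% did. The upward count without overlap is near its share and is not read as a result about the members. Myh2, Tnni1 and Cacna1s were too low to be tested, and Tnnc1 reached the filter only through the T+E2 group and so had to differ.

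The fast-fibre genes followed particular libraries. Myh4 was at 0.09, 13.6, 0.02 and 0.11 TPM in controls 7, 8, 9 and 10 and at 22.3, 3.71, 76.3 and 66.7 TPM in T+E2 libraries 1, 2, 18 and 24 (log2 fold change 3.74 ± 1.02, limma adjusted p = 0.0421). Control 8 thus lay above T+E2 library 2. Each member was also taken as a percentage of its mean in urethra of the same arm, T+E2 or untreated. The median was then 3.68% and 4.42% in T+E2 libraries 18 and 24, 1.06% in T+E2 library 1 and 0.249% in T+E2 library 2. It was 1.36% in control 8 and 0.0727% to 0.139% in the other controls. Tnnt3 had the largest uncalled difference, with 0.82, 94.2, 1.81 and 3.04 TPM in controls and 92.6, 12.4, 381 and 453 TPM under T+E2 (4.19 ± 1.34, adjusted p = 0.0763). Within the heavy chains Myh1 was 66.7% in control 8 and 53.2%, 36.1%, 59.0% and 67.6% in T+E2 libraries 1, 2, 18 and 24, and Myh4 22.9% against 37.9%, 48.8%, 33.1% and 25.5%.

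The count of called members depended on these libraries. It was 30 without T+E2 library 2, 16 without control 8, 3 without control 7, 9 or 10 or T+E2 library 1, 2 without library 18 or 24, and 1 (Neb) without both. These counts are not set beside the share of all genes called in each fit, so they show only a dependence on libraries. Leaving out the 4 muscle-rich libraries 1, 18, 24 and control 8, which were picked by the members' own values, keeps 1 T+E2 library. No call is read from that fit.

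Neb and Tnnc1 were the called members with the smallest standard errors. Neb was at 0.64, 3.12, 0.63 and 0.63 TPM in controls 7, 8, 9 and 10 and at 7.21, 5.86, 15.97 and 14.6 TPM in T+E2 libraries 1, 2, 18 and 24 (2.43 ± 0.37, limma adjusted p = 0.00185). Libraries 18 and 24 were the highest and library 2 the lowest of the treated, and control 8 the highest control, as for the share of all members. Tnnc1 was at 0.39, 0.47, 0.49 and 0.63 TPM in controls and at 2.68, 2.94, 2.30 and 1.77 TPM under T+E2 (1.18 ± 0.14, adjusted p = 0.000406), with library 2 the highest and control 8 within the range of the other controls. The part of muscle content in either difference was not tested. Pvalb was at 0, 10.1, 0.38 and 0 TPM in controls and 22.6, 12.4, 68.2 and 58.5 TPM under T+E2 (4.09 ± 0.77, adjusted p = 0.00705), where control 8 was only just below T+E2 library 2. Myot (2.51 ± 0.71, adjusted p = 0.0479) and Mybpc2 (2.42 ± 0.63, adjusted p = 0.0359) overlapped, since control 8 exceeded T+E2 library 2 in both.

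Of the other lists in DLP, 5 of 50 other skeletal muscle genes tested rose, with a median of 1.09. Examples were cardiac actin Actc1 (2.83 ± 0.77), the actin-anchoring Nrap (1.03 ± 0.15) and the reticulum channel Tmem38a (0.57 ± 0.15). The sodium channel gene Scn4a was also among the 5, but it reached the filter only through the T+E2 group and so had to differ. One of 11 myogenic genes rose, the broadly used Mef2a (0.30 ± 0.08), while Myod1 and Myog stayed at or below 0.43 TPM. Of 7 neuromuscular junction genes and 15 smooth muscle markers limma called 0, with 1 and 2 at an unadjusted p under 0.05. Of the urothelial markers, 3 of 6 rose, and their sum went from 376 to 389 TPM in controls to 737 to 911 TPM. Prostate secretion genes moved as well, with 2 of 10 higher and 3 lower, among them 9530002B09Rik (−1.99), Fuca1 (1.84), Pbsn (−1.67) and Tgm4 (−1.50). The part of these changes in the members' result was not tested.

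In the AP, 3 members rose from under 2 TPM to between 5.74 and 24.9 TPM under T+E2, while most fast-fibre genes were low in both arms. Only 19 of 37 members were tested, of which 3 rose and 3 fell, where 21.6% of all genes rose and 12.9% fell. The 3 that rose were Neb, Myot and Tnnc1. Groups did not overlap in the same 3 upwards, where 21.4% of all genes did so, and downwards in the slow troponin Tnnt1 and in Mybpc2, which was too low to be tested, against 13% of all genes. None of these counts stood clearly above the share over all genes, so the counts are not read as a result about the members. The median log2 fold change of the tested members was −0.25 beside 0.07 over all genes.

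Neb was at 0.23, 0.09, 0.71 and 0.57 TPM in controls 6, 7, 8 and 9 and at 18.1, 24.9, 17.7 and 16.9 TPM in T+E2 libraries 2, 3, 17 and 18 (3.87 ± 0.17, limma adjusted p = 7.63e-08). Myot was at 0.14, 0.28, 1.65 and 0.99 TPM in controls and at 18.8, 18.9, 16.6 and 16.03 TPM under T+E2 (3.47 ± 0.23, adjusted p = 1.59e-06). Tnnc1 was at 0.94, 0.57, 0.23 and 0.48 TPM in controls and at 10.4, 12.5, 5.74 and 8.43 TPM under T+E2 (2.69 ± 0.21, adjusted p = 4.92e-06). The treated AP thus held 311% to 675% of the mean Tnnc1 level of T+E2 urethra. Neb and Tnnc1 reached the filter only through the T+E2 group and so had to differ, and both were also called with no filter. Leaving out any T+E2 library left them untested, and leaving out any control library kept all 3 calls.

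The 250 bases before the Tnnc1 start are shown because it was called higher in both lobes and is, after Tnni1, the member with the highest UGS level relative to urethra. In both lobes Tnnc1 reached the filter only through the T+E2 group and so had to differ, so the calls are a reason for display only. The window is chr14:31208062-31208311 on GRCm38.p6, plus strand, from RefSeq, with E-box matches (CANNTG) in capitals.
Tnnc1: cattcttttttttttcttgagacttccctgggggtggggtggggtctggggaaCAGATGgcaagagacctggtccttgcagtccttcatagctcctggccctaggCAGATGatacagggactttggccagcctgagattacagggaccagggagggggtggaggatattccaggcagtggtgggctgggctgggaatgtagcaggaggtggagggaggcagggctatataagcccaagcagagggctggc
The pair of CAGATG matches start 197 and 145 bases before the annotated start. The letters TATAAA, and matches to the MEF2 and CArG motifs, are not in this window.

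Most fast-fibre members were near the floor in treated AP. Their sum was 46.1 to 83.6 TPM under T+E2 and 67.5 to 151 TPM in controls, and most of it was Tnnc2, with means of 53.9 and 70.6 TPM. Myh4 and Pvalb were listed at 0 in all 4 T+E2 libraries, Myh1 was at or below 0.04 TPM and Myl1 lay between 0.28 and 2.68 TPM. In all, 17 of 37 members were under 1 TPM in every T+E2 library. The controls 8 and 9 held a little more of them, with Pvalb at 20.6 and 16.9 TPM, Tnnt3 at 10.6 and 9.49 TPM and Myl1 at 8.69 and 7.05 TPM, against Pvalb at 0.54 and 0 TPM in controls 6 and 7. The 3 members that fell were Mylpf (4.76, 4.13, 12.4 and 12.7 TPM in controls, 2.86 to 4.27 TPM under T+E2, −0.89 ± 0.31, limma adjusted p = 0.0472), Tnnt1 (−0.40 ± 0.13, adjusted p = 0.0340) and Pygm (−0.59 ± 0.19, adjusted p = 0.0322). Without controls 8 and 9 none of them was called, and Mb was called higher beside Neb, Myot and Tnnc1. The Mylpf call also ended without control 8 alone or control 9 alone, as did that of Pygm, and the Tnnt1 call ended without control 6, 7 or 8 or T+E2 library 17 or 18. Mylpf ended without any T+E2 library as well, and Pygm without T+E2 library 2 or 3.

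**Figure D5:**
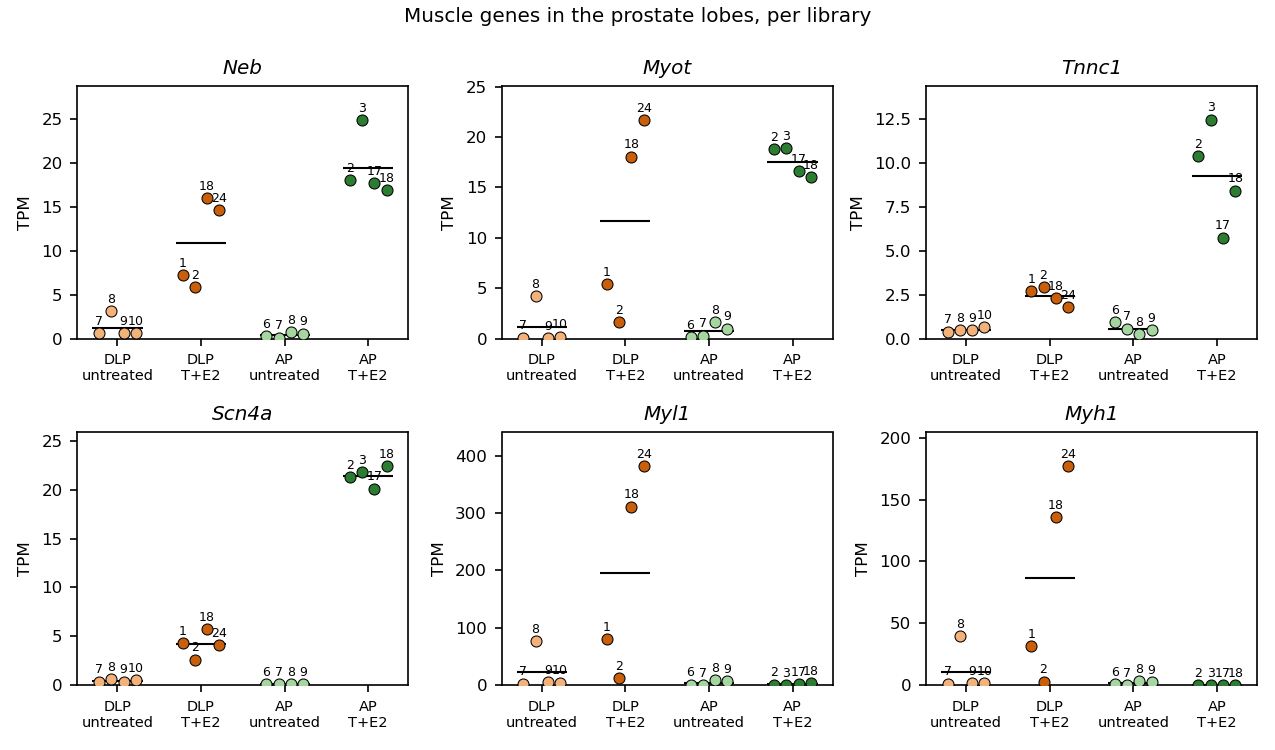
TPM of Neb, Myot, Tnnc1, Scn4a, Myl1 and Myh1 in each DLP and AP library, with lines at the group means. In AP the first 4 genes are high in all T+E2 libraries and Myl1 and Myh1 are not, while in DLP Myl1 and Myh1 vary between libraries of both arms.

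Among the 21 other skeletal muscle genes tested in AP, 7 rose and 1 fell. The muscle sodium channel Scn4a went from 0.07, 0.06, 0.11 and 0.11 TPM to 21.3, 21.8, 20.1 and 22.4 TPM (4.36 ± 0.09, limma adjusted p = 3.33e-10), and like Neb and Tnnc1 it reached the filter only through the T+E2 group and so had to differ. The treated values lay below the 27.5 to 38.0 TPM of untreated urethra. Tmem38a rose from a mean of 14.8 to 27.6 TPM (0.86 ± 0.08), the respiratory subunit Cox7a1 from 5.11 to 9.69 TPM (0.81 ± 0.15) and the fatty acid binding protein Fabp3 from 8.87 to 14.3 TPM (0.60 ± 0.21). In DLP, Scn4a was at 0.35 to 0.58 TPM in controls and 4.28, 2.60, 5.72 and 4.08 TPM under T+E2 (1.81 ± 0.18), a gene chosen there after its values were seen. There too Scn4a reached the filter only through the T+E2 group and so had to differ. Of 10 myogenic genes tested 2 rose in AP, one being Chodl (0.64 ± 0.18), while Myod1 and Myog were listed at 0 in all 8 AP libraries. Of 4 junction genes tested limma called 0, with 2 at an unadjusted p under 0.05.

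Markers of other cells moved in the AP as well. Of 9 prostate secretion genes tested, 3 rose and 4 fell, with Msmb (5.80), Defb50 (4.46) and Fuca1 (2.29) higher and 9530002B09Rik (−4.09) and Pbsn (−2.09) lower. Of 15 smooth muscle markers, 5 fell, which were Cnn1 (−0.67), Des (−0.49), Tagln (−0.38), Synm (−0.33) and Myh11 (−0.28). Des is also on the list of other skeletal muscle genes and is the gene that fell there. Of 6 urothelial markers present, 5 were tested and 3 rose, and their sum went from 357 to 419 TPM to 934 to 1456 TPM. Cardiac markers were represented by Tnni3 and Myl4, of which the inhibitory troponin Tnni3 rose (0.71 ± 0.11), and Myh6 and Nppa were not analysed here. The seminal vesicle gene Svs2 was low in T+E2 libraries 2 and 3 (159.0 and 11.5 TPM) and high in 17 and 18, and Neb, Myot and Tnnc1 were each higher in libraries 2 and 3 than in 17 and 18. The part of these lists in the members' result was not tested.

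The effect of T+E2 was compared directly between tissues. The effect in DLP exceeded that in urethra in 3 of 37 members and fell short in 0, where 2.39% of all genes were higher and 1.09% lower. They were Neb (difference of log2 fold changes 2.27 ± 0.44, limma adjusted p = 0.00722), Tnnc1 (1.06 ± 0.22, adjusted p = 0.0113) and Pvalb (3.46 ± 0.90, adjusted p = 0.0453), of which Pvalb lost its call without any one library other than DLP control 8 or DLP T+E2 2. The effect in AP exceeded that in urethra in 3 members and was below it in 8, where 15.7% and 6.93% of all genes were. The count of higher members did not exceed its share. Neb (3.72 ± 0.22, adjusted p = 5.70e-09), Myot (3.01 ± 0.29, adjusted p = 1.39e-06) and Tnnc1 (2.57 ± 0.29, adjusted p = 9.07e-06) were the 3 higher. The 8 lower were Acta1, Myh1, Mylpf, Tnni1, Tnnc2, Pvalb, Eno3 and Mybpc2, from −0.60 for Eno3 to −2.94 for Pvalb, of which Pvalb lost its call in 18 alternatives and Tnni1 in 8. Among them, Myh1, Tnni1, Pvalb and Mybpc2 were too low to be tested in AP alone. They reached the filter here only through the urethra, so their calls are not read as a change in AP. In the urethra itself, Neb, Myot and Tnnc1 had log2 fold changes of 0.15 ± 0.13, 0.46 ± 0.13 and 0.13 ± 0.17, with none called. The 2 comparisons share the 8 urethra libraries. The split in AP moved to 3 higher and 13 lower under median-of-ratios scaling, where the median of all genes went from 0.11 to −0.01, and to 3 and 18 after removing a length trend. Without AP control 7 the count was 3 higher and 18 lower. No share of all genes called stands beside these alternative counts, so they show only a dependence on settings and libraries.

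The embryonic UGS had another composition. Slow troponin genes, near the bottom in the adult urethra, were among the most abundant members. Tnnt1 lay between 79.3 and 229 TPM, Tnnc1 between 40.3 and 158 TPM and Tnni1 between 25.2 and 138 TPM over the 8 libraries. The light chains Mylpf (62.2 to 440.2 TPM) and Myl1 (82.5 to 186 TPM) and the tropomyosin Tpm3 (255 to 336 TPM) were also high. Among the 4 member heavy chains, perinatal Myh8 made up 68.1% to 90.4%, and Myh1, Myh2 and Myh4 were at or below 2.34 TPM. Embryonic Myh3, which is no member, was higher than Myh8 in every UGS library, at 11.9 to 108 TPM against 1.54 to 19.1 TPM. Slow-fibre members summed to 457 to 817 TPM and fast-fibre members to 207 to 1010 TPM. Genes of developing muscle were present, with Myog at 32.4 to 198 TPM, Myod1 at 5.37 to 32 TPM and Chrna1 at 2.82 to 15.0 TPM. Adult urethra and UGS differ in age, culture and tissue, and were not tested against each other.

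Testosterone was not seen to change the members in UGS. None of 31 tested was called by limma, where 1.43% of all genes rose and 0.301% fell, and 0 had an unadjusted p under 0.05, which 32.1% of all genes had. Groups did not overlap in 0 members, where 8.19% of all genes were higher and 2.64% lower without overlap. The median log2 fold change was −0.07 beside 0.17 over all genes, or −0.25 beside −0.00 after median-of-ratios scaling. Tnni1 showed the spread. Without hormone it was at 122, 138, 25.2 and 86.6 TPM in libraries A, C, D and H, and with testosterone at 55.8, 38.4, 73.7 and 79.6 TPM in B, C, G and H. Library D without hormone was the lowest of the 8 and libraries A and C the highest, as they were for Tnnc1, Acta1 and Myog. Weighting libraries by their quality (arrayWeights) called 6 members lower, Ckm, Myl1, Tnnt1, Tnnc1, Mb and Cox6a2. That weighting called far more genes over the whole table as well, as given in the section on processing, so the 6 are not read as a result about the members. Of the other lists, 0 of 46 other skeletal, 1 of 19 myogenic (Chodl, from 13.4 to 31.7 TPM, 1.18 ± 0.09) and 0 of 11 junction genes were called, with 6 other skeletal and 2 junction genes at an unadjusted p under 0.05. A difference smaller than the spread between these libraries was not detectable.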

How the data were processed

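The data were 1 deposited table of TPM values per gene and library, with its columns named by library. The authors deposited TPM, and the submitters' processing notes name STAR, RSEM, edgeR, FastQC and the mm9 build, with no versions or roles. Counting settings and strand were not given in the sources used here. TPM shares are relative, so a rise of abundant muscle genes lowers all others, and depth is unknown.

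Members and lists were chosen with earlier results of these data known. Each comparison was fitted with limma 3.58.1 (R 4.3.3) on log2(TPM + 1) with a mean-variance trend, over genes at or above 1 TPM in at least 4 libraries of the comparison, and p-values were Benjamini-Hochberg adjusted over all genes tested, with 0.05 as the threshold. Differences between tissues in the T+E2 effect were interaction terms over 16 libraries. Adding 1 understates the change of low genes. All members are accounted for, and of other lists at most 4 called genes with a mean of at least 5 TPM are named per comparison, with fixed defining markers. Scripts were tested on simulated data. Separate animals or cultures are not stated in the labels, and p-values then reflect only the spread among these libraries, which may be technical. Promoters came from RefSeq tables of GRCm38.p6.

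Alternatives were pseudocounts of 0.1 and 5, other filters, median-of-ratios and quantile scaling, no trend, arrayWeights, removal of a length trend (13718 genes with a length), a replicate block and leaving libraries out.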

Additional observations from a re-analysis of the deposited data

Results flagged for a closer look

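In DLP without hormone, library 8 lay apart from the other 3 by Dixon's ratio, the gap to the nearest library divided by the range of the 4. The ratio was 0.887 for the summed members (1542 against at most 715 TPM in the others), 0.994 for the heavy chains (59.5 against 1.65 TPM), 0.8295 for the troponins (375 against 160.2 TPM), 0.955 for the Z-disc, titin, nebulin and myosin-binding genes (114 against 36.8 TPM), 0.980 for the calcium group (67.2 against 10.2 TPM) and 0.932 for the energy group (244 against 65.8 TPM). All 6 exceed the 95% critical value, 58 sums were examined, and chance marks about 1 in 20.

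Members whose T+E2 effect differed between tissues by an interaction term were Tnnc1 (1.06), Pvalb (3.46) and Neb (2.27) in DLP minus urethra. In AP minus urethra they were Acta1 (−0.73), Myh1 (−1.999), Mylpf (−1.54), Tnni1 (−0.85), Tnnc1 (2.57), Tnnc2 (−0.83), Pvalb (−2.94), Eno3 (−0.60), Neb (3.72), Myot (3.01) and Mybpc2 (−1.25). Of these, Myh1, Tnni1, Pvalb and Mybpc2 were too low to be tested in AP alone and reached the filter only through the urethra. The causes were not tested.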

How the results depend on the processing

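Directions of called members did not reverse under any alternative run. The 2 calls in urethra became 1 with a pseudocount of 5, 0 with no filter, with median-of-ratios, with quantile scaling and with the length trend removed, 22 with arrayWeights (20 higher, 2 lower; 2335 genes called against 47) and 5 with the urethra rescaled to equal members, and 0 to 2 with 1 library left out. The 6 calls in DLP became 3 with a pseudocount of 5, 1 without libraries 18 and 24, and 2 to 30 with 1 library out. The 6 in AP ranged from 2 to 6 with 1 library out. The 0 calls in UGS stayed at 0 with any library out and became 6 with arrayWeights (7616 genes called against 230). For DLP minus urethra, 3 became 2 to 13 with 1 library out. For AP minus urethra, 11 became 17 with a pseudocount of 5, 21 with the length trend removed and 9 to 21 with 1 library out. With 1 library out, tissue counts ranged from 33 to 36 (DLP), 27 to 36 (AP) and 6 to 8 (DLP against AP). Except for the arrayWeights fits, no number of all genes called is given beside these counts. They therefore show a dependence on processing and are not read as results about the members. The causes were not tested.

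The labels do not say whether equal library numbers mark the same animal, and correlations between libraries cannot settle it. Same-number correlations ran from −0.160 to 0.210 in adults and were 0.106 and 0.669 for C and H in UGS. The consensus correlation within a replicate block was 0.733 in UGS and ran from −0.0999 to 0.238 in the adult comparisons. With a replicate block the member counts were 0 in UGS (5681 genes called), 36 and 36 for urethra against DLP and AP, 9 for DLP against AP, 2 for DLP minus urethra and 14 for AP minus urethra. Outside UGS these block counts are given without the number of all genes called. No paired analysis was possible for T+E2 against control within a tissue because the arms share no numbers. Scaling also moved the split of all genes. In AP it went from 2706 higher and 1617 lower to 2169 and 2300 with median-of-ratios, in DLP from 798 and 607 to 981 and 1260 with quantile scaling, and in UGS from 190 and 40 to 170 and 93. With 4 libraries a group and unknown depth, members near 1 TPM are the least certain.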

Other observations

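Outside the 38, the genes whose level ran closest to the mean of the members over the 24 adult libraries were also genes of striated muscle. They were Rpl3l, Myl3, Hrc, Pgam2, Kbtbd10, Srl, Myom2 and Cox8b, with a Pearson r of log2(TPM + 1) of 0.997 or more, and all 8 were on the list of other skeletal muscle genes. The slow light chain Myl3 averaged 1672 TPM in urethra and 7.65 TPM in the lobes, above every slow troponin of the urethra. The ribosomal protein Rpl3l, made in striated muscle, averaged 283 and 2.46 TPM. The 24 points fall into urethra and lobes and share that split, so these values are a description.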
